A study of Mus musculus with 6 samples.

Results

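The tumour necrosis factor (TNF) family consists of secreted or membrane-bound ligands and the receptors that bind them, and the genes described here are its members other than the RANK, RANK ligand and osteoprotegerin genes. They were taken by name from the probes of a whole-genome mouse array: every non-control row named Tnfsf or Tnfrsf with a number, or named Tnf, Fas, Fasl, Ngfr, Eda, Edar, Cd27 or Cd70, leaving out Tnfrsf11a, Tnfrsf11b and Tnfsf11. This took 38 gene names with 53 of 41174 probes and 107 of 43379 spots, and no probe carried the name Cd30l. One of the 38 names, Tnfsf5ip1, is an older name of Psmg2, a proteasome assembly chaperone that is not a TNF gene. The values below are for the 37 genes left, on 51 probes. They are 14 ligands and 23 receptors, and 7 of the receptors carry a death domain, the intracellular part through which a receptor can start cell death. The array knows Relt, an orphan receptor of the family, under its older name Tnfrsf19l.

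The ThymusEC samples were thymic epithelial cells from the medulla of C57BL/6 mice, sorted as Epcam+ UEA1+ CD45- Fluorogold-, and the ThyroidEC samples were thyroid epithelial cells of the same strain, sorted as Epcam+ CD45- Fluorogold-. Epcam is an epithelial adhesion protein, UEA1 a plant lectin that binds medullary thymic epithelium, CD45 the surface protein of blood cells and Fluorogold a dye that marks dead cells. Each group had 3 arrays, 1 for each replicate that the submitters call independent. ThymusEC replicates 1 and 2 pooled 6 thymi each and replicate 3 pooled 2, whereas each ThyroidEC replicate pooled 20 thyroids. No genotype or treatment other than the strain was given.

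TNF family receptors form groups of chains on the cell surface when a ligand binds. Those with a death domain recruit adaptors such as Fadd and Tradd, and the others bind TRAF proteins that lead to NF-kB and kinase signalling. In the thymus the family is best known for the signals by which T cells promote the growth and maturation of medullary epithelium, and many of its members are otherwise known as costimulatory molecules of lymphocytes.

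Each gene was read by 60-base probes. The first 30 bases, 5′ to 3′, of the probes on which the main results rest are shown with their position on the mm8 build, the build of the array files. The first set holds 3 receptors that no ThyroidEC array measured and the ligand Tnf. The second holds 3 genes whose 2 probes gave differences of unlike size, with the probe used for the gene listed before its partner. The third holds 3 neighbouring receptor genes that moved differently from one another.
Tnfrsf17, chr16:11233530-11233559, plus strand: tagataatgagcttcctaactggtgtgaag
Tnfrsf13c, chr15:82049080-82049109, minus strand: ataaaatggactaacacaggcactatgagt
Tnfrsf8, chr4:144559396-144559425, minus strand: cctactctagaatccccagccaatgacagt
Tnf, chr17:34807932-34807961, minus strand: tgggctttccgaattcactggagcctcgaa
Tnfsf13b, cDNA probe, chr8:10037355-10037384, plus strand: ttgcctgtgctggtattttgaggtgtttct
Tnfsf13b, RefSeq transcript probe, chr8:10035533-10035562, plus strand: cgttgaatctgatccaaaccaggaaatata
Ngfr, probe nearer the 3′ end, chr11:95385017-95385046, minus strand: tccagctggcgactatgagatccagacctc
Ngfr, upstream probe, chr11:95390343-95390372, minus strand: acccgaggcaccgctgacaacctcattcct
Fas, RefSeq transcript probe, chr19:34393409-34393438, plus strand: caactcctggtgtgttctctttgccagcaa
Fas, cDNA probe, chr19:34375240-34375269, plus strand: ggagagactctttaaaatgaaaacacaata
Tnfrsf26, chr7:143417505-143417534, minus strand: ccaacactatagaactattcacttgataaa
Tnfrsf22, chr7:143446909-143446938, minus strand: cctgaatcagtctgtaggtcatgtttaatc
Tnfrsf23, chr7:143477944-143477973, minus strand: actggctgttcctactgatgctaattgtct

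Levels are log2 of the processed signal minus the 75th percentile of the same array, so a level of 0 is as bright as that percentile. Differences are ThymusEC minus ThyroidEC on this log2 scale. A probe counted as measured on an array where the scanner software marked it well above background, and a gene was tested if a probe of it was measured on all 3 arrays of at least 1 group. Levels of different genes come from different probes and are not set against each other. With 3 arrays a group, their number limits the precision. The labels were checked against marker genes: the summed signal of 6 genes of medullary thymic epithelium was 309 to 330 times the 75th percentile signal on ThymusEC arrays and 1.35 to 2.21 times on ThyroidEC arrays, while that of 7 thyroid follicular genes was 0.533 to 0.570 times on ThymusEC arrays and 553 to 722 times on ThyroidEC arrays. Correlations between arrays were 0.994 to 0.995 within ThymusEC, 0.987 to 0.990 within ThyroidEC and 0.747 to 0.780 between the groups. Among all probes, 78.4% to 81.0% were measured on each ThymusEC array and 65.4% to 72.8% on each ThyroidEC array. ThymusEC replicates 1 to 3 and ThyroidEC replicate 1 were on slide 1, and ThyroidEC replicates 2 and 3 on slide 2.

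Most of the TNF genes differed between the 2 epithelia. Of the 36 that could be tested, 23 were higher and 9 lower in ThymusEC at an adjusted p under 0.05, and 4 did not pass. Across all 21381 genes tested, 39.2% were higher and 30.6% lower. The median difference of the 36 genes was 1.79, or 1.62 with genes that have only a lower bound set at it, against 0.10 over all genes. By 2-fold or more, 21 were higher and 6 lower, where 28.4% and 14.7% of all genes were. On all ThymusEC arrays, 23 of the 36 genes lay above and 10 below every ThyroidEC array, and the groups did not overlap for 76.5% of all genes. Of the 23 higher genes, 10 were measured on all 3 ThymusEC arrays but on at most 1 ThyroidEC array, and such genes entered the test only through the group in which they were high. The other 26 tested genes were measured on all 6 arrays. Fitted among genes measured on all 6 arrays, 13 of the 26 were higher and 10 lower, where 29.4% and 37.6% of the 17071 genes were, and the median difference was 0.49, against -0.10 over those genes. Centring each array on its median in place of the 75th percentile moved all differences down by 0.52 and the share of higher genes among all calls to 35.8%, against 56.2%, and gave 21 higher and 11 lower TNF genes. With the slide as a block or on slide 1 alone, ThymusEC was set against ThyroidEC replicate 1 only. Both gave the same differences, with a median of 1.79 over the TNF genes. Slide 2 held no ThymusEC array and gives no value of its own.

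**Figure D1:**
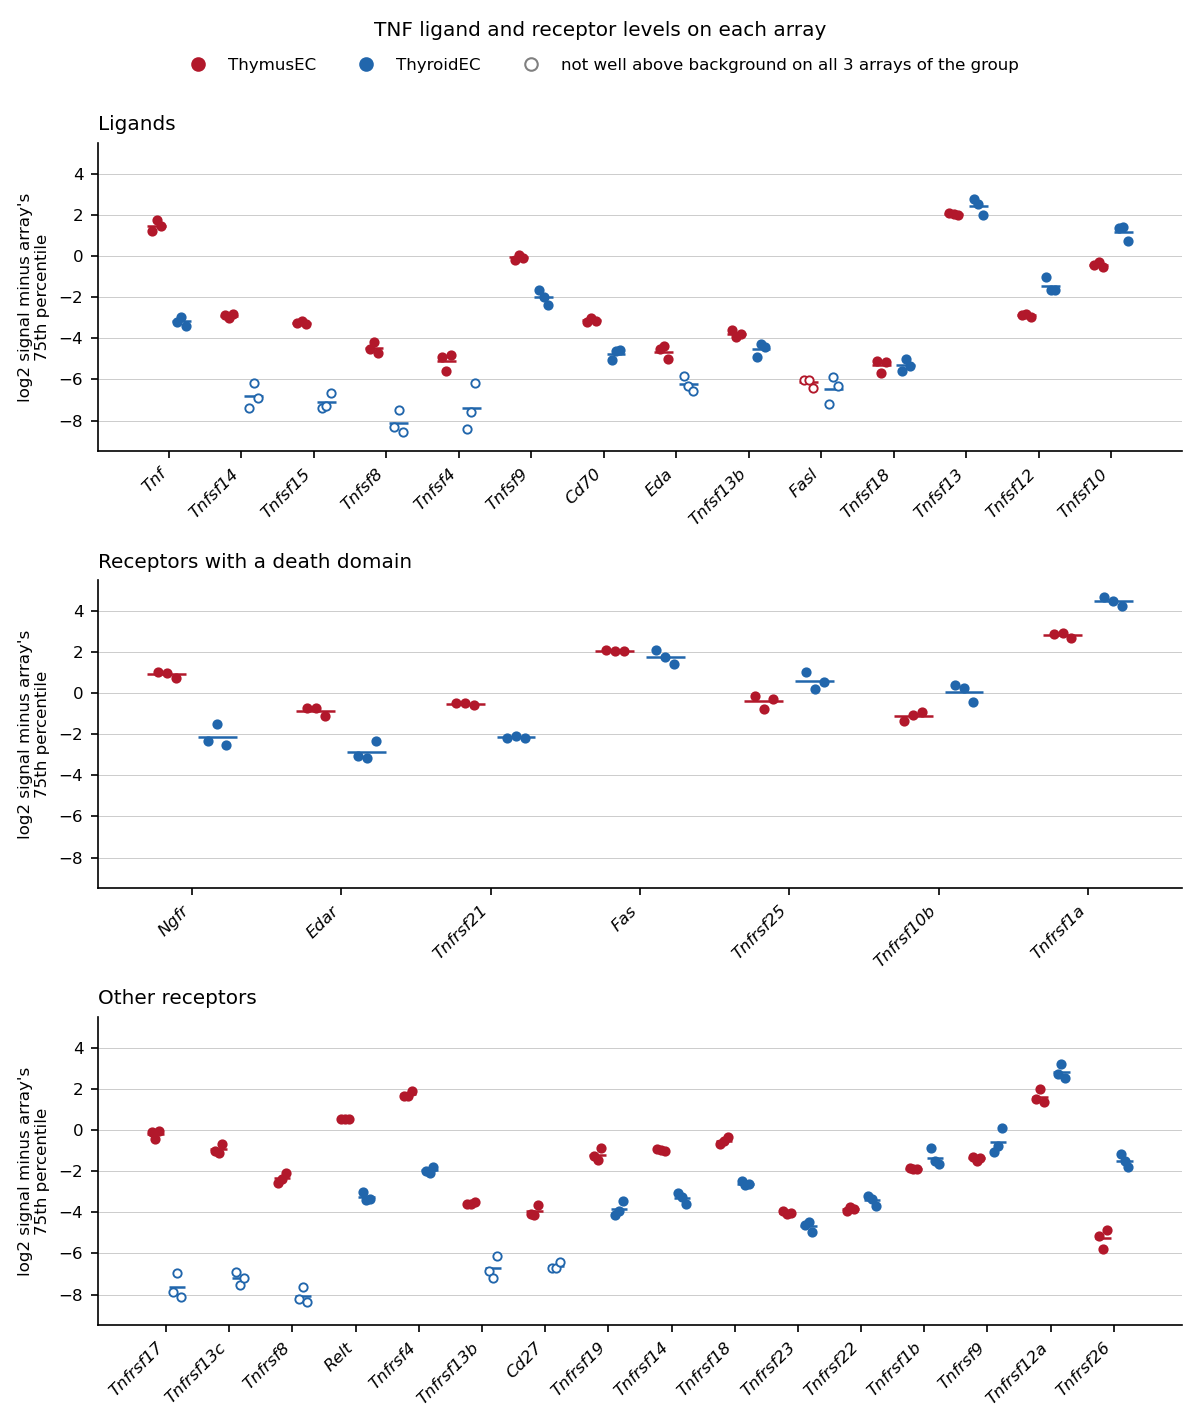
Level of each gene on each array (log2 signal minus the array's 75th percentile; points are arrays, lines are group means), ThymusEC left of ThyroidEC. Open points mark groups in which the gene was not well above background on all 3 arrays. The ThyroidEC levels of Tnfrsf17, Tnfrsf13c and Tnfrsf8 lie between -8.35 and -6.90 and are open, whereas Tnfrsf1a, Tnfsf10 and Tnfrsf26 are lower in ThymusEC.

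Split by role, 9 of 13 tested ligands were higher and 2 lower. Of the 7 receptors with a death domain, 3 were higher and 3 lower, and of the 16 other receptors, 11 were higher and 4 lower, where 39.2% of all genes were higher and 30.6% lower. Of the higher genes, 5 ligands and 5 of the other receptors entered the test only through ThymusEC, whereas all 7 death-domain receptors were measured on all 6 arrays, so the roles are not compared with each other. From these genes, 18 pairs of a ligand and a signalling receptor were listed, and receptors outside the rule were left out. Both partners were higher in 8 pairs and both lower in 2, and in 3 pairs the ligand was higher while its receptor was lower. The remaining 5 pairs held a gene that did not pass or was not tested. Each of the 8 pairs with both partners higher held a gene that entered the test only through ThymusEC, as did Tnfsf15 with Tnfrsf25. Such genes could hardly come out lower. The 2 pairs with both lower, Tnf with Tnfrsf1a and Tnfsf9 with Tnfrsf9 were measured on all 6 arrays. Pairs also share genes, so these counts are a description. Of the 8 pairs, the 3 with Tnfsf13b and those of Tnfsf4 and Eda rest on calls that some alternatives removed, as does the call of Tnfrsf9 in a pair with partners in opposite directions.

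**Figure D2:**
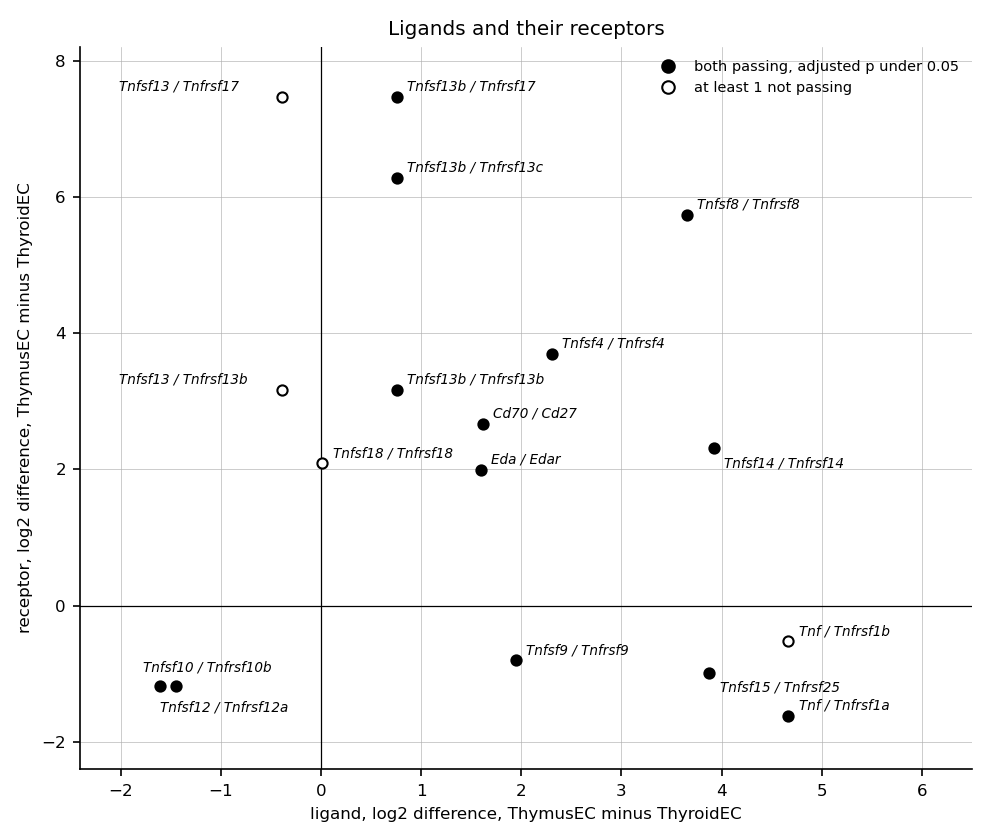
Log2 difference, ThymusEC minus ThyroidEC, of each ligand (horizontal axis) and of its receptor (vertical axis), 1 point a pair. Open points have at least 1 partner that did not pass, and Fasl with Fas is left out because Fasl was not tested. Tnfsf10 and Tnfsf12 lie at the lower left with their receptors, and Tnf, Tnfsf15 and Tnfsf9 at the lower right with receptors below 0.

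Tnf, the founding ligand and an inflammatory cytokine, had levels of 1.22, 1.76 and 1.47 in ThymusEC and -3.18, -2.95 and -3.40 in ThyroidEC. It was well above background on all 6 arrays, and every ThymusEC array was brighter than every ThyroidEC array. The difference was 4.67 ± 0.18 (SE, n = 3 a group), a 25.4-fold higher signal in ThymusEC (limma, adjusted p = 2.02e-06). Its main receptor on epithelia, Tnfrsf1a, went the other way, with 2.85, 2.94 and 2.70 in ThymusEC and 4.66, 4.46 and 4.25 in ThyroidEC. Tnfrsf1a is the death-domain receptor that carries most signals of soluble TNF. The groups did not overlap, and Tnfrsf1a was 3.08-fold lower in ThymusEC (difference -1.62 ± 0.14, limma, adjusted p = 6.62e-05). The second TNF receptor, Tnfrsf1b, binds TRAF proteins and had -1.84, -1.89 and -1.87 in ThymusEC and -0.86, -1.50 and -1.66 in ThyroidEC. All its ThymusEC arrays were below all ThyroidEC arrays, but the difference of -0.53 ± 0.21 did not pass (limma, adjusted p = 0.0611). Tnfrsf1b passed in 10 of 18 alternatives, among them median centring at -1.05 (limma, adjusted p = 0.00425) and without ThyroidEC replicate 3 at -0.69 (limma, adjusted p = 0.0252). The slide as a block and slide 1 alone are among the 10. They share a difference of -1.004, with ThyroidEC replicate 1 as the only ThyroidEC array behind it. A second probe of Tnfrsf1b, 8562 bases upstream on the genome, differed by -0.28 and passed among all probes (limma, adjusted p = 0.0405).

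Receptors of the BAFF and APRIL system, known for the survival of B cells and plasma cells, were higher in ThymusEC and dim or not measured in ThyroidEC. Tnfrsf17 (BCMA), a receptor for both ligands, had -0.09, -0.41 and -0.05 in ThymusEC and -7.88, -6.94 and -8.14 in ThyroidEC. No ThyroidEC array measured it, so its ThymusEC signal was at least 59.1-fold higher, taking for each ThyroidEC array the lowest signal marked well above background there, or the probe's own if brighter (limma, adjusted p = 2.44e-06). All later "at least" folds are made in this way and hold for this background treatment. Normexp background correction, which adds an offset of 50 to every signal and so draws dim values together, kept these calls but gave smaller differences, of 3.07 for Tnfrsf17, 2.71 for Tnfrsf13c, 1.66 for Tnfrsf8, 1.07 for Tnfsf14, 0.91 for Tnfsf15, 0.60 for Cd27 and 0.45 for Tnfsf8. Tnfrsf13c, the BAFF receptor, had -0.99, -1.11 and -0.66 in ThymusEC and -6.90, -7.52 and -7.20 in ThyroidEC. It too was measured on every ThymusEC array and on no ThyroidEC array, and was at least 35.4-fold higher in ThymusEC (limma, adjusted p = 8.84e-07). Tnfrsf13b (TACI), the third receptor, averaged -3.56 ± 0.06 in ThymusEC and -6.73 ± 0.54 in ThyroidEC (SD, n = 3). Of the ThyroidEC arrays, 1 of 3 measured it (difference 3.17 ± 0.26, SE; limma, adjusted p = 4.90e-05; 0.68 with normexp). A second probe of Tnfrsf13b was dimmer and measured on no ThyroidEC array. Its signal was at least 1.29-fold higher in ThymusEC (limma over all probes, adjusted p = 0.000199).

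The ligand of all 3 receptors, Tnfsf13b (BAFF), moved less on the probe used for the gene. That probe had -3.62, -3.94 and -3.78 in ThymusEC and -4.92, -4.29 and -4.42 in ThyroidEC, groups that did not overlap (difference 0.76 ± 0.19, limma, adjusted p = 0.0105). This call was lost with arrays centred on their median, at 0.24 (limma, adjusted p = 0.253), and the difference was 2.80 with quantile normalization. The probe of its RefSeq transcript, 1822 bases upstream, had -2.38, -2.49 and -2.42 in ThymusEC and -6.03, -5.94 and -6.35 in ThyroidEC. No ThyroidEC array measured this probe, and its signal was at least 11.3-fold higher in ThymusEC (limma over all probes, adjusted p = 1.49e-06). The probes thus shared the direction and differed in size. Tnfsf13 (APRIL), which binds Tnfrsf17 and Tnfrsf13b, averaged 2.04 ± 0.04 in ThymusEC and 2.43 ± 0.39 in ThyroidEC, groups that overlapped (limma, adjusted p = 0.123). Tnfsf13 passed with median centring at -0.91 (limma, adjusted p = 0.00582) and without ThyroidEC replicate 3 at -0.60 (limma, adjusted p = 0.00594). With the slide as a block, which sets ThymusEC against ThyroidEC replicate 1 only, its difference was -0.72.

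These receptors are textbook genes of the B lineage, and genes that mark B cells moved with them. All 8 B-cell genes tested were higher in ThymusEC, with a summed signal of 6.43 to 7.17 times the 75th percentile signal on ThymusEC arrays and 1.58 to 2.78 times on ThyroidEC arrays. Of the defining ones, Ms4a1 (CD20), Pax5 and Blk were measured on no ThyroidEC array and on every ThymusEC array, at mean levels of -2.30, -3.28 and -3.84 in ThymusEC. Ptprc, the gene of CD45, on whose absence both sorts gated, was higher in ThymusEC by 4.05. How far such cells contributed to the receptor signals was not tested. In sorted cells measured in bulk, fewer cells of a type and less RNA per cell cannot be told apart.

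Several members are known from T-cell costimulation and are given in pairs. Tnfrsf8 (CD30), a receptor of activated lymphocytes, had -2.55, -2.37 and -2.07 in ThymusEC and -8.20, -7.64 and -8.35 in ThyroidEC. It was measured on no ThyroidEC array and was at least 13.3-fold higher in ThymusEC (limma, adjusted p = 1.91e-06). Its ligand Tnfsf8 averaged -4.45 ± 0.26 in ThymusEC and -8.11 ± 0.57 in ThyroidEC, was likewise measured on no ThyroidEC array, and was at least 3.06-fold higher in ThymusEC (limma, adjusted p = 4.55e-05).

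Tnfrsf4 (OX40), a receptor of activated T cells, had 1.67, 1.64 and 1.92 in ThymusEC and -1.99, -2.08 and -1.81 in ThyroidEC. All 6 arrays measured it and the groups lay far apart (difference 3.70 ± 0.13, limma, adjusted p = 1.34e-06). Its ligand Tnfsf4 averaged -5.09 ± 0.41 in ThymusEC and -7.40 ± 1.13 in ThyroidEC, was measured on 1 ThyroidEC array and had the widest ThyroidEC spread of the members (difference 2.31 ± 0.55, SE; limma, adjusted p = 0.0083). Without ThyroidEC replicate 3, the array that measured it, the difference was 2.91, and its call was lost with normexp background correction (limma, adjusted p = 0.0857) and with quantile normalization (limma, adjusted p = 0.0794).

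Tnfsf14 (LIGHT), a ligand of the herpesvirus entry mediator, had -2.86, -3.00 and -2.84 in ThymusEC and -7.40, -6.17 and -6.89 in ThyroidEC. No ThyroidEC array measured it, and it was at least 8.98-fold higher in ThymusEC (limma, adjusted p = 3.21e-05). Its receptor Tnfrsf14 averaged -0.98 ± 0.06 in ThymusEC and -3.29 ± 0.27 in ThyroidEC, a 4.95-fold higher signal in ThymusEC (limma, adjusted p = 1.83e-05), and a second probe 53 bases upstream gave a difference of 2.44.

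Cd27, a receptor of T cells and memory B cells, had -4.07, -4.11 and -3.67 in ThymusEC and -6.69, -6.72 and -6.41 in ThyroidEC. It was measured on no ThyroidEC array and was at least 4.20-fold higher in ThymusEC (limma, adjusted p = 1.21e-05). Its ligand Cd70 had -3.21, -3.02 and -3.15 in ThymusEC and -5.07, -4.60 and -4.56 in ThyroidEC. Cd70, which medullary thymic epithelium is known to carry, was measured on all 6 arrays without overlap of the groups (difference 1.61 ± 0.16, limma, adjusted p = 0.000131).

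Tnfrsf18 (GITR), a receptor prominent on regulatory T cells, had -0.65, -0.52 and -0.35 in ThymusEC and -2.48, -2.67 and -2.64 in ThyroidEC. The groups did not overlap, and its signal was 4.25-fold higher in ThymusEC (difference 2.09 ± 0.12, limma, adjusted p = 1.07e-05). Its ligand Tnfsf18 had -5.10, -5.66 and -5.13 in ThymusEC and -5.58, -4.99 and -5.37 in ThyroidEC. These groups overlapped, with a difference of 0.02 ± 0.22 that did not pass (limma, adjusted p = 0.955), and whose sign changed with the scaling.

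Tnfsf9, the ligand of CD137, averaged -0.07 ± 0.11 in ThymusEC and -2.01 ± 0.37 in ThyroidEC, a 3.85-fold higher signal in ThymusEC (limma, adjusted p = 0.000128). Its receptor Tnfrsf9 (CD137) had -1.29, -1.50 and -1.33 in ThymusEC and -1.07, -0.76 and 0.11 in ThyroidEC. Tnfrsf9 was 1.75-fold lower in ThymusEC and only narrowly passed (difference -0.80 ± 0.30, limma, adjusted p = 0.0458), while its second probe differed by -1.24. The call was lost without any 1 of the ThymusEC replicates or without ThyroidEC replicate 2, at -0.90 to -0.74 (limma, adjusted p = 0.0591 to 0.121). On slide 1 alone, against ThyroidEC replicate 1 only, the difference was -0.31.

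Tnfsf15 (TL1A), a ligand that costimulates T cells, had -3.25, -3.15 and -3.30 in ThymusEC and -7.39, -7.31 and -6.64 in ThyroidEC. It was measured on no ThyroidEC array and was at least 7.13-fold higher in ThymusEC (limma, adjusted p = 7.20e-06). Its receptor Tnfrsf25 (DR3), a death-domain receptor of T cells, had -0.15, -0.76 and -0.29 in ThymusEC and 1.02, 0.22 and 0.54 in ThyroidEC. All ThymusEC arrays of Tnfrsf25 were below all ThyroidEC arrays, a 1.99-fold lower signal (difference -0.99 ± 0.25, limma, adjusted p = 0.0107). Its second probe was measured on 1 ThymusEC array and 2 ThyroidEC arrays and was not tested.

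Of the T-cell genes, 12 of 13 were higher in ThymusEC and Cd8b1 was lower. Most of the receptors above shared that direction, whereas Tnfrsf9 and Tnfrsf25 were lower. The 13 T-cell genes had summed signals of 2.82, 3.14 and 5.24 times the 75th percentile signal on ThymusEC arrays. On ThyroidEC arrays the sums were 1.96, 1.84 and 1.96 times. ThymusEC replicate 3, the pool of 2 thymi, was thus the highest. Cd8b1, the gene that was lower in ThymusEC, made up most of the ThyroidEC sums. Cd3g, Cd8a, Rag1, Cd2 and Cd28 were measured on no ThyroidEC array. Of the myeloid and dendritic genes, 9 of 10 tested were higher in ThymusEC, with a summed signal of 96.4 to 104 times on ThymusEC arrays and 1.68 to 3.06 times on ThyroidEC arrays, and the lysozyme gene Lyz2 made up most of it. Siglech and Clec9a, which define dendritic cell subsets, were measured on no array. Of the natural killer and innate lymphoid genes, 3 of 4 tested were higher and 1 lower. The part of such cells in the levels of the TNF genes was not tested.

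**Figure D3:**
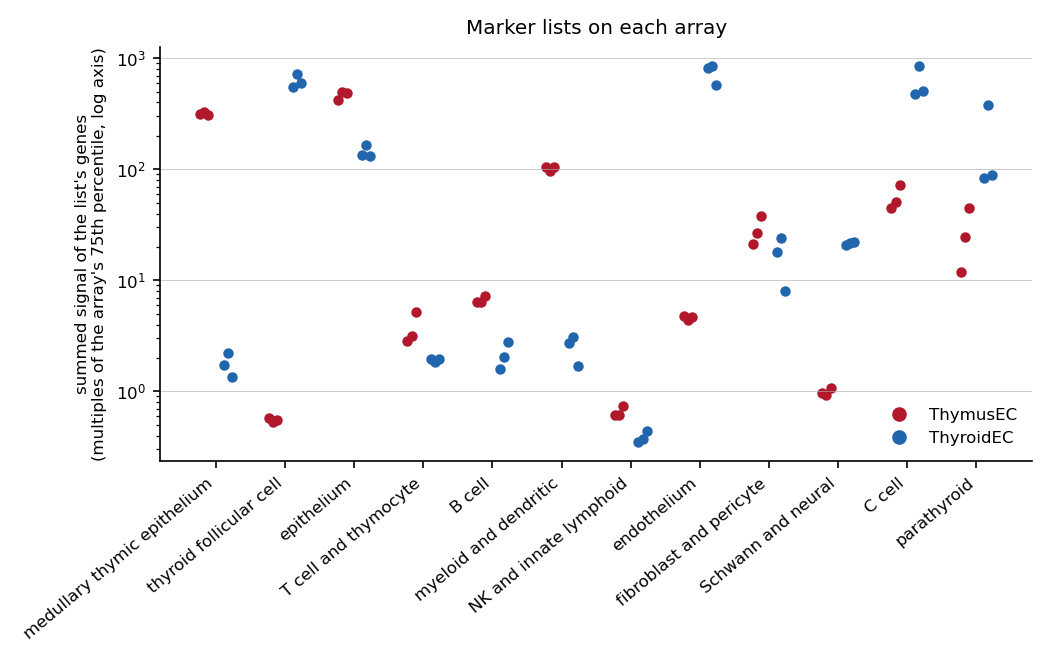
Summed signal of each list of marker genes on each array, in multiples of the array's 75th percentile signal (log axis; points are arrays), ThymusEC left of ThyroidEC. B-cell, T-cell and myeloid sums are higher on ThymusEC arrays, and the endothelial sum is 4.39 to 4.80 on ThymusEC arrays and 571 to 856 on ThyroidEC arrays.

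The ectodysplasin genes, which shape hair, teeth and glands, were higher in ThymusEC. The ligand Eda had -4.52, -4.38 and -5.03 in ThymusEC and -5.82, -6.33 and -6.56 in ThyroidEC. Only 1 of 3 ThyroidEC arrays measured Eda (difference 1.60 ± 0.25, limma, adjusted p = 0.00109). The call was lost at 0.17 with normexp background correction (limma, adjusted p = 0.370) and at 0.36 with quantile normalization (limma, adjusted p = 0.273). Its death-domain receptor Edar had -0.74, -0.75 and -1.11 in ThymusEC and -3.08, -3.14 and -2.35 in ThyroidEC. All 6 arrays measured Edar without overlap, a 3.97-fold higher signal in ThymusEC (difference 1.99 ± 0.24, limma, adjusted p = 0.000306). Edaradd, the adaptor that binds Edar, was also higher, by 3.37, and so was the related receptor Eda2r, by 2.01.

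Ngfr, the p75 neurotrophin receptor, had 1.05, 0.99 and 0.75 in ThymusEC and -2.31, -1.48 and -2.54 in ThyroidEC. The groups were far apart, with an 8.24-fold higher signal in ThymusEC (difference 3.04 ± 0.28, limma, adjusted p = 7.88e-05). The upstream probe of Ngfr, 5326 bases away, had -2.24, -2.39 and -2.55 in ThymusEC and -3.21, -2.88 and -2.50 in ThyroidEC. These groups overlapped, and the difference of 0.47 did not pass (limma over all probes, adjusted p = 0.0714). The Schwann-cell genes, which would accompany nerve, were not higher in ThymusEC: 2 of 4 were lower, with summed signals of 0.926 to 1.07 on ThymusEC arrays and 20.7 to 22.4 on ThyroidEC arrays.

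Relt, an orphan receptor, had 0.54, 0.52 and 0.53 in ThymusEC and -2.99, -3.40 and -3.34 in ThyroidEC. Its groups did not overlap, and it was 13.7-fold higher in ThymusEC (difference 3.78 ± 0.14, limma, adjusted p = 1.49e-06). Tnfrsf19 (TROY), a receptor known from skin and brain, averaged -1.19 ± 0.31 in ThymusEC and -3.82 ± 0.35 in ThyroidEC (difference 2.63 ± 0.23, SE; limma, adjusted p = 6.22e-05). Tnfrsf21 (DR6), which carries a death domain, averaged -0.52 ± 0.04 in ThymusEC and -2.15 ± 0.05 in ThyroidEC. Its signal was 3.11-fold higher in ThymusEC (limma, adjusted p = 1.09e-05), and its other probes differed by 1.63 and 0.77.

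**Figure D4:**
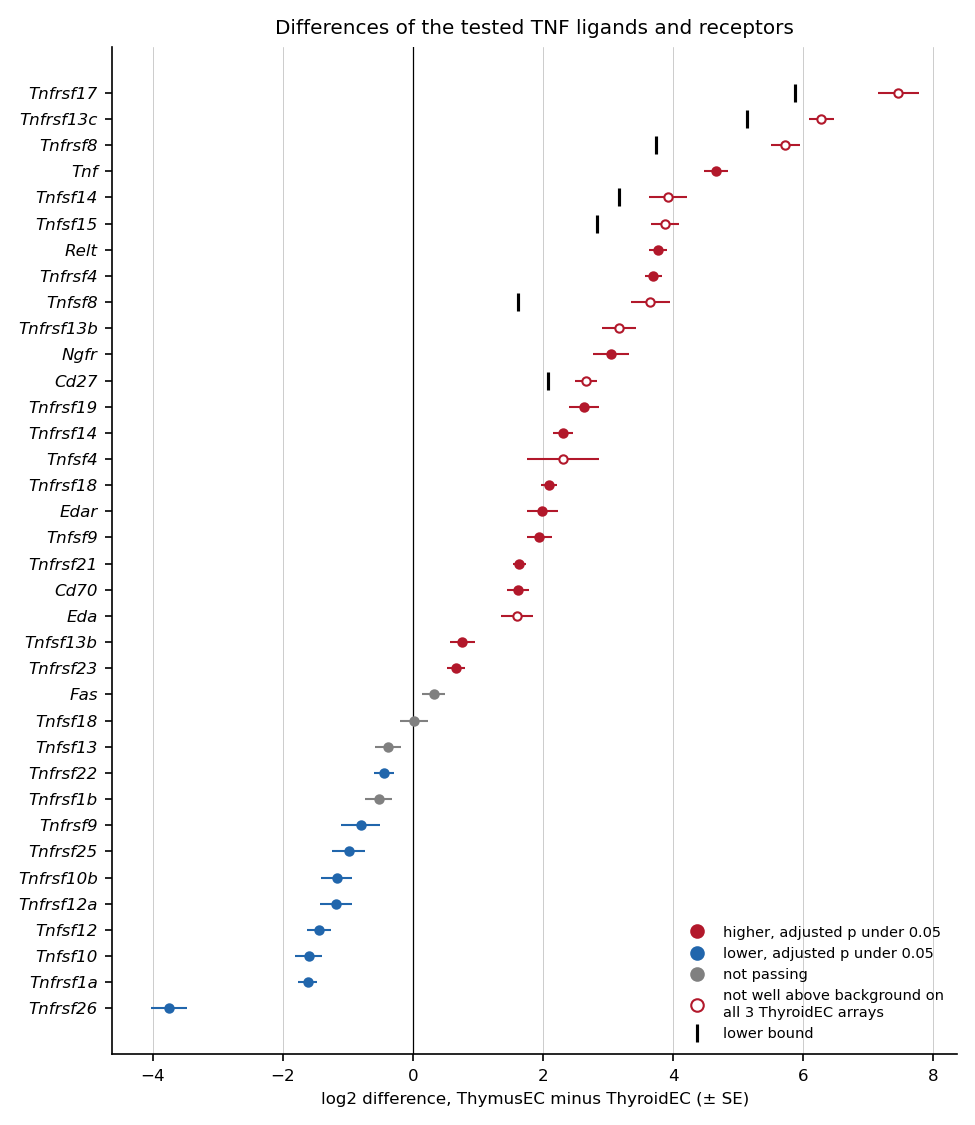
Log2 difference, ThymusEC minus ThyroidEC, of each tested gene with its standard error (n = 3 arrays a group). Red and blue points passed at an adjusted p under 0.05, grey points did not, open points were not measured on all 3 ThyroidEC arrays, and black ticks are lower bounds. Among genes measured on all 6 arrays, the values run between -3.76 for Tnfrsf26 and 4.67 for Tnf, and the ticks, the values to read for genes measured on no ThyroidEC array, lie left of their fitted points.

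Both members of the TRAIL and of the TWEAK pair were lower in ThymusEC. Tnfsf10 (TRAIL), a ligand that can kill cells, had -0.46, -0.31 and -0.55 in ThymusEC and 1.34, 1.42 and 0.73 in ThyroidEC. Its groups did not overlap, and its signal was 3.04-fold lower in ThymusEC (difference -1.60 ± 0.20, limma, adjusted p = 0.000398). Its death receptor in the mouse, Tnfrsf10b, had -1.35, -1.05 and -0.93 in ThymusEC and 0.38, 0.24 and -0.42 in ThyroidEC. Tnfrsf10b was 2.26-fold lower in ThymusEC (difference -1.18 ± 0.24, limma, adjusted p = 0.00379), and its other probes differed by -1.29 and -1.51.

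Tnfsf12 (TWEAK), a ligand of tissue repair, had -2.84, -2.84 and -2.95 in ThymusEC and -1.03, -1.65 and -1.63 in ThyroidEC. No array of the groups overlapped, and it was 2.72-fold lower in ThymusEC (difference -1.44 ± 0.19, limma, adjusted p = 0.000447). Its receptor Tnfrsf12a (Fn14), which is induced in injured tissue, had 1.52, 2.02 and 1.36 in ThymusEC and 2.73, 3.21 and 2.51 in ThyroidEC. Tnfrsf12a was 2.27-fold lower in ThymusEC, again without overlap (difference -1.19 ± 0.24, limma, adjusted p = 0.00411).

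Tnfrsf22, Tnfrsf23 and Tnfrsf26 lie side by side on chromosome 7, and the first pair are decoy receptors for TRAIL in the mouse. Tnfrsf26 had -5.13, -5.77 and -4.84 in ThymusEC and -1.16, -1.50 and -1.80 in ThyroidEC. It was measured on all 6 arrays and was 13.5-fold lower in ThymusEC, the largest fall among the members (difference -3.76 ± 0.28, limma, adjusted p = 2.88e-05; -1.92 with normexp). Tnfrsf22 averaged -3.84 ± 0.09 in ThymusEC and -3.39 ± 0.25 in ThyroidEC and was 1.36-fold lower (limma, adjusted p = 0.0368). Leaving out any 1 array other than ThyroidEC replicate 3 took this call away (limma, adjusted p = 0.0610 to 0.116). Tnfrsf23 averaged -4.02 ± 0.08 in ThymusEC and -4.68 ± 0.23 in ThyroidEC and was 1.58-fold higher (limma, adjusted p = 0.00555), but its direction turned under quantile normalization, at -0.30. Their probes shared 21 to 22 of 60 bases when laid side by side without gaps.

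Several marker lists shared the direction of the lower members. Of the 7 thyroid follicular genes, 6 were lower in ThymusEC, with a median difference of -7.72 over the list. All 11 endothelial genes were lower, with a median difference of -7.43. Their summed signal was 4.39 to 4.80 times the 75th percentile signal on ThymusEC arrays and 571 to 856 times on ThyroidEC arrays. Genes of thyroid C cells and of parathyroid were lower as well, 2 of 2 each, with sums of 44.5 to 71.6 and 11.8 to 45.1 on ThymusEC arrays and 475 to 854 and 83.6 to 381 on ThyroidEC arrays. Of 7 fibroblast and pericyte genes, only Dcn passed, and it was higher in ThymusEC. The part of these cells in the lower TNF genes was not tested.

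Fas, the death receptor of Fas ligand, had 2.07, 2.06 and 2.07 in ThymusEC and 2.08, 1.77 and 1.40 in ThyroidEC. The groups overlapped through ThyroidEC replicate 1, and the difference of 0.32 ± 0.18 did not pass (limma, adjusted p = 0.158). Without that array it passed at 0.49 (limma, adjusted p = 0.0274), and on slide 1 alone it was -0.016. A second Fas probe, made from a cDNA and placed 18169 bases upstream, had -0.11, 0.12 and 0.04 in ThymusEC and -0.86, -0.65 and -1.48 in ThyroidEC. This probe did not overlap between the groups and passed (difference 1.01, limma over all probes, adjusted p = 0.00552). Fasl, its ligand and a killing molecule of lymphocytes, had -6.01, -6.00 and -6.40 in ThymusEC and -7.21, -5.86 and -6.34 in ThyroidEC. Only 1 array of each group measured it, so it was not tested, and it was not well above background on the others.

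**Figure D5:**
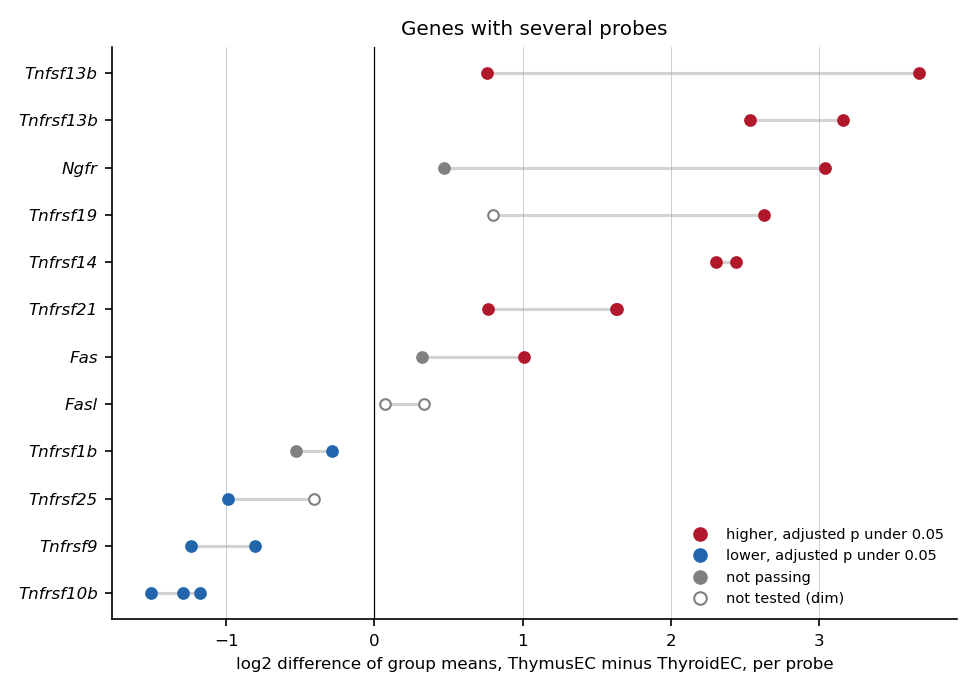
Log2 difference of the group means, ThymusEC minus ThyroidEC, for every probe of the 12 genes with several probes (1 point a probe; open points were not tested). No gene has probes that passed in opposite directions, and the probes of Ngfr lie at 0.47 and 3.04. The higher Tnfsf13b point is of a probe that no ThyroidEC array measured, with a lower bound of 3.50.

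Of the 12 genes with several probes, 9 had more than 1 probe that could be tested. None of these 9 had probes that passed in opposite directions. The 10 spots of the probes of Fas, Tnf, Tnfrsf1a, Tnfrsf1b and Ngfr allowed the spread within an array to be read: the median SD between spots of a probe was 0.049 to 0.081 on the log2 scale for these 5 and 0.352 for the dim probe of Fasl.

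Genes that pass the signal on inside the cell were measured next to the receptors. Of 23 adaptors and regulators tested, 12 were higher in ThymusEC and 7 lower, with a median difference of 0.32. Of all genes, 39.2% were higher and 30.6% lower. All 23 were measured on all 6 arrays. Among the 17071 genes so measured, fitted alone, 29.4% were higher and 37.6% lower, with a median of -0.10. The highest were Edaradd (3.37), the TRAF family member Traf1 (2.66) and the ubiquitin ligases Birc2 and Birc3 (2.17 each). The lowest were the kinase Ripk1 (-1.87), Dap (-1.53), the necroptosis kinase Ripk3 (-1.50) and the necroptosis effector Mlkl (-0.84). Fadd and Casp8, which start killing from death-domain receptors, were lower by smaller amounts, at -0.50 and -0.44. The adaptors were thus split in direction.

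Of 8 tested family genes outside the rule, 6 were higher in ThymusEC and 2 lower, where 39.2% of all genes were higher and 30.6% lower. Tnfrsf11b, the decoy receptor osteoprotegerin, differed by 7.09, the lymphotoxin ligand Ltb by 4.45, Tnfrsf11a (RANK) by 4.23 and Cd40 by 2.03. Lta and the lymphotoxin receptor Ltbr were lower, by -0.55 and -0.82. Tnfsf11 (RANK ligand) was measured on no ThyroidEC array and so entered the test only through ThymusEC. Its signal was at least 1.69-fold higher in ThymusEC, and Cd40lg was measured on no array.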

How the data were processed

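Expression was measured in 3 ThymusEC and 3 ThyroidEC samples on single-colour Agilent arrays. Per the labels' protocols, Trizol was used for extraction and Cy3 for labelling. Per the file headers, Feature Extraction (Agilent, 10.5.1.1) turned the scans into numbers: for each spot the authors deposited an intensity, already detrended and corrected for background, and a flag that tells whether the spot is well above background (13 background SDs). The authors also deposited a value table that is a linear ratio, the processed signal over the array's median, which served as an alternative. No column was left unused (0).

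Controls and flagged outliers (67 to 151 spots an array) were dropped before spots of a probe were averaged. From these the log2 of the processed signal minus the array's 75th percentile was computed from the deposited intensities. Genes were named through a GRCm38.p6 table, and each was read from its tested probe with the highest mean. ThymusEC was set against ThyroidEC in limma 3.58.1 (R 4.3.3; a moderated two-sided test from lmFit with eBayes and no covariate), with Benjamini-Hochberg adjustment over the 21381 genes tested or, where said, over the 32347 probes tested. The fit was tested on simulated data. The members, the pairs, the marker, adaptor and related-gene lists, the tests and the alternatives were chosen with earlier results of these data known. Values of every array are given for the 8 largest changes in each direction among members that passed and for 20 members listed by name whatever their values, with means, differences or bounds for the rest. For each direction, the 4 adaptors with the largest differences are named; Fadd and Casp8 were added after their values were seen. Plots were made in Python 3.11.15 with matplotlib 3.10.9.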

Additional observations from a re-analysis of the deposited data

How the results depend on the processing

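Of the 36 tested members, 26 kept their direction and their side of the threshold under every alternative that could fit them, 19 higher and 7 lower. The alternatives were quantile normalization, median centring, normexp, the deposited ratios, blocks for replicate or slide, slide 1 alone, robust trended variances, no filter on dim probes, a filter on all 6 arrays, a gene's median probe, leaving out each replicate and, chosen after seeing the data, scaling by the median of probes measured on all 6 arrays. Higher members numbered 20 to 24 and lower ones 7 to 11, except with the filter on all 6 arrays, which tests 26 members and gave 13 higher. Without 1 replicate, 23 to 24 were higher and 7 to 11 lower; it was 11 without ThyroidEC replicate 3. Tnfsf18 turned to -0.10 with normexp, -1.21 with quantile normalization (limma, adjusted p = 0.00122), -0.51 with median centring and -0.51 in the deposited ratios, and ranged from -0.12 to 0.20 without 1 replicate. Tnfrsf23 turned to -0.30 with quantile normalization. Fas turned to -0.21 with median centring and in the deposited ratios, and to -0.016 with the slide as a block and on slide 1 alone. Psmg2 turned to -0.36 with median centring and in the deposited ratios. Calls of Tnfrsf22, Tnfrsf9, Tnfrsf23, Eda, Tnfsf4 and Tnfsf13b were lost under at least 1 alternative, and Tnfrsf1b, Tnfsf13, Fas and Tnfsf18 gained one. Sizes moved more than calls: the members' median difference was 0.64 with normexp and 1.79 without it. The causes were not tested. Quantile normalization moved differences by a median of -0.18 over all genes, and single genes in both directions. Same-numbered samples did not deviate together (r = 0.01, -0.07 and -0.05), and the fit with a replicate block gave 23 higher and 8 lower members, losing Tnfrsf22. The slide as a block and slide 1 alone gave the same differences, since both set ThymusEC against ThyroidEC replicate 1 only. They are therefore not separate checks. On slide 1 alone, the single ThyroidEC array is assumed to vary like the ThymusEC arrays. Signal over background limits the 7 members measured on no ThyroidEC array, whose differences are bounds, and Fasl, which was not testable. It also limits Tnfrsf13b, Tnfsf4 and Eda, each measured on 1 ThyroidEC array, whose differences carry no bound.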
